A study of Sus scrofa with 32 samples.

Results

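The genes described here encode 3 sine oculis homeobox factors, SIX2, SIX4 and SIX5, and 3 of their eyes absent cofactors, EYA1, EYA2 and EYA4. They are 6 genes chosen by symbol out of 19550 protein-coding pig genes on placed chromosomes. Sine oculis homeobox proteins are transcription factors that bind the MEF3 element of muscle promoters. EYA proteins do not bind DNA themselves: they join these factors as coactivators and also carry a phosphatase domain. In mouse, both families act with PAX proteins at the top of the myogenic hierarchy and remain in use in satellite cells, from which muscle regenerates. For each gene, every peak that overlapped its annotated span or the 5 kb on either side was taken from 24 peak lists.

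The lists come from CUT&Tag, which cuts and tags DNA beside an antibody-bound histone, in pig muscle satellite cells. The treated cells were given SGC-CBP30 (called CBP), which blocks the bromodomains of CBP and p300, a pair of histone acetyltransferases, for 60 h in differentiation (CBP 60 h) or for 48 h in proliferation (CBP 0 h). They are set against untreated cells (called WT) at 60 h of differentiation and at 0 h. The label for the dose reads 5 uM/ml, a unit that could not be resolved. The marks are H3K4me3, which sits at active promoters, H3K27ac, which sits at active promoters and enhancers, and H3K27me3, which Polycomb complexes place on silenced genes, with 2 libraries for each mark and group. Other label fields conflict with these: they name C3H cells and RPMI medium, and they give proliferation for 60 h samples too. Groups and times were taken from the sample titles. Nothing says that replicates were separate cultures, so p-values measure the spread between libraries, which may be technical.

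Peaks per library numbered 14898 to 17364 for H3K4me3, 8969 to 23437 for H3K27ac and 1338 to 19317 for H3K27me3. The total length under H3K27ac peaks was 10.5 ± 1.74 Mb in CBP 60 h and 19.1 ± 1.601 Mb in WT 60 h, and 5.53 ± 1.084 Mb in CBP 0 h and 12.3 ± 0.976 Mb in WT 0 h (SD, n = 2 each). For H3K4me3 it was 27.6 ± 0.0832 Mb in CBP 60 h and 26.97 ± 0.5995 Mb in WT 60 h, and 17.3 ± 0.0939 Mb in CBP 0 h and 21.9 ± 0.188 Mb in WT 0 h. Each gene is therefore read beside all genes. The median log2 change of all genes tested was 0.18 for H3K4me3 and 0.69 for H3K27ac at 60 h against 0 h in WT, −0.19 and −0.46 for CBP against WT at 0 h, and 0.04 and −0.72 for CBP against WT at 60 h. Quantile scaling, which gives the 8 libraries of a mark one distribution, brought these medians to between −0.07 and 0.08. H3K4me3 peaks lay at all 6 satellite cell and myoblast genes in every group but CBP 0 h, where MYOD1 had none, and their summed length was 26.3 to 27.3 kb in CBP 60 h, 33.0 to 34.5 kb in WT 60 h, 12.5 to 12.7 kb in CBP 0 h and 24.6 to 25.0 kb in WT 0 h. Of 5 differentiated muscle genes, all had H3K4me3 at 60 h (8.96 to 10.4 kb in CBP, 19.98 to 20.004 kb in WT) and 1 had it at 0 h (0.249 to 0.271 kb in CBP, 0.945 to 1.51 kb in WT). Of 5 fibroblast genes, DPP4 alone had none, in CBP 0 h, and they held 16.2 to 16.4 kb in CBP 60 h, 16.9 to 17.7 kb in WT 60 h, 8.04 to 8.59 kb in CBP 0 h and 14.4 to 14.6 kb in WT 0 h. None of 4 endothelial and 3 neuronal genes had an H3K4me3 peak, and of 4 immune genes only CD68 did. In H3K27ac the fibroblast genes held 9.43 to 10.7 kb in CBP 60 h, 21.8 to 26.8 kb in WT 60 h, 0.922 to 1.39 kb in CBP 0 h and 5.43 to 5.77 kb in WT 0 h, with PDGFRA at 0 in all 8 libraries. The satellite cell and myoblast genes held 16.04 to 21.3 kb of H3K27ac in CBP 60 h, 29.1 to 31.8 kb in WT 60 h, 5.19 to 7.93 kb in CBP 0 h and 16.5 to 17.9 kb in WT 0 h. The differentiated muscle genes held 2.09 to 3.08 kb in CBP 60 h, 7.26 to 8.11 kb in WT 60 h, none in CBP 0 h and 0.467 to 0.67 kb in WT 0 h. Both fibroblast and muscle genes thus moved in the direction of the H3K27ac changes of SIX4, EYA1 and EYA4, and their part in those results was not tested. At most 1 of 4 endothelial, 2 of 4 immune and 0 of 3 neuronal genes had H3K27ac in any library.

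The value given for a gene is the length of DNA under peaks in its window, in kb, and a log2 change is one of base pairs plus 500, from a limma fit over all genes. Calls are at an adjusted p (Benjamini-Hochberg over all genes) below 0.05. A shorter length may stand for fewer cells that carry the mark or for less of it in each cell, which bulk libraries cannot tell apart. All 6 genes held H3K4me3 in all 8 libraries, 5 held H3K27ac in some library, and only EYA2 held any H3K27me3.

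**Figure D1:**
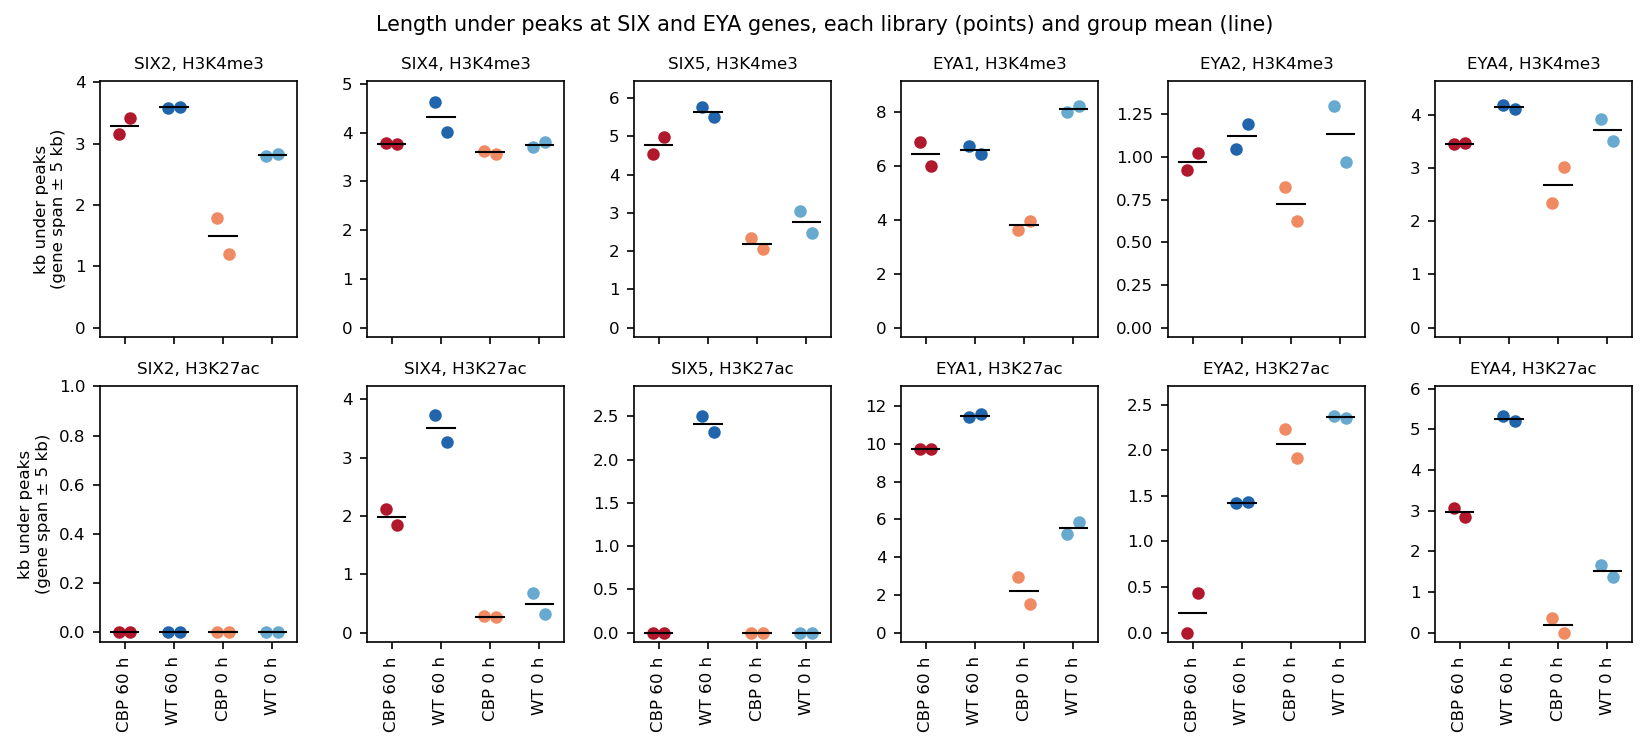
Length under H3K4me3 peaks (upper row) and H3K27ac peaks (lower row) in the span ± 5 kb of each gene, in kb; points are libraries, 2 for each group, and lines are group means. SIX2 has no H3K27ac in any library, SIX5 has it in WT 60 h alone, and EYA1 has the least H3K4me3 in CBP 0 h, 3.63 and 3.97 kb.

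SIX2 (chromosome 3, 95460046 to 95463428 of Sscrofa11.1, a span of 3.38 kb) is best known as the factor that keeps kidney nephron progenitors undifferentiated in mouse. Its H3K4me3 lay in 2 regions, from 1.13 to 0.26 kb before the lower-coordinate end of the gene and from 0.05 to 2.89 kb into it. The annotation used gives no strand, so positions are counted from the lower coordinate and the start of transcription is not marked. SIX2 had 3.16 and 3.42 kb of H3K4me3 in CBP 60 h, against 3.59 and 3.60 kb in WT 60 h. It had 1.78 and 1.20 kb in CBP 0 h, against 2.80 and 2.84 kb in WT 0 h. The CBP libraries were below the WT libraries at both times, with no overlap. At 0 h the fall was 0.75 on the log2 scale (SE 0.13, adjusted p = 0.00538), at percentile 7.33 of all genes. It held in each fit that left out 1 library and in each other processing tried, with adjusted p up to 0.0455 and values from −1.72 to −0.47. At 60 h the change was −0.11 (adjusted p = 0.615), and the difference between the times was 0.64 (adjusted p = 0.0338). The call of that difference was lost without any one library of WT 0 h, WT 60 h or CBP 60 h (adjusted p up to 0.101). It was also lost in 4 of 9 other processings: lists trimmed to equal length (1.19, adjusted p = 0.0583), quantile scaling (0.38, adjusted p = 0.167), −log10 q of at least 5 (1.60, adjusted p = 0.136) and the span without its flanks (0.61, adjusted p = 0.0635). No H3K27ac and no H3K27me3 was listed at SIX2 in any of 8 libraries each.

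SIX4 (chromosome 1, 189670390 to 189682378, 11.99 kb) acts in the muscle lineage in mouse. A single H3K4me3 peak covered one end of the gene, from 7.93 to 12.6 kb, and it was among the widest of its list in every library, at percentiles 95.0 to 99.1 of peak width. In the authors' deposited fold over local background the peak stood at percentiles 84.2 to 98.7 of its own list. SIX4 had 3.79 and 3.76 kb of H3K4me3 in CBP 60 h, against 4.62 and 4.02 kb in WT 60 h. It had 3.63 and 3.57 kb in CBP 0 h, against 3.70 and 3.81 kb in WT 0 h. The CBP libraries were the lower ones at each time, by small lengths at 0 h. No SIX4 change in H3K4me3 passed the test in the main fit. With quantile scaling SIX4 was called lower for CBP at 60 h (−0.20, adjusted p = 0.0493). The difference between the times was then called too (−0.41, adjusted p = 0.0145). The CBP change at 0 h was −0.05 (SE 0.06, adjusted p = 0.535), at percentile 74.8 of all genes, and it was 0.21 with quantile scaling (adjusted p = 0.0323; 0.0323 to 0.825 over all alternatives).

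The H3K27ac of SIX4 moved where its H3K4me3 did not pass the test in the main fit. SIX4 had 2.12 and 1.84 kb of H3K27ac in CBP 60 h, against 3.74 and 3.27 kb in WT 60 h. It had 0.278 and 0.272 kb in CBP 0 h, against 0.672 and 0.317 kb in WT 0 h. Every 60 h library was above every 0 h library. In WT the 60 h level was higher by 2.03 (SE 0.19, adjusted p = 0.000681), at percentile 93.7 of all genes, and this held in every alternative. At 60 h the CBP change was −0.69 (SE 0.19, adjusted p = 0.0342), close to the median of all genes at percentile 51.7. That call was lost without any one library of the 60 h groups or of CBP 0 h (adjusted p up to 0.161), and the value was 0.04 with quantile scaling (adjusted p = 0.901, the range over all alternatives being 0.00484 to 0.901). The acetylated DNA lay mainly from 9.64 to 12.2 kb, under the H3K4me3 peak. There it measured 1.61 ± 0.219 kb in CBP 60 h and 2.33 ± 0.245 kb in WT 60 h, and 0.353 ± 0.0509 kb in WT 0 h, with none in CBP 0 h (SD, n = 2 each). A second, smaller site from 3.63 to 4.26 kb was listed in both WT 60 h libraries and in no other.

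SIX5 (chromosome 6, 52095332 to 52099458, 4.13 kb) lies 0.801 kb from DMPK, the kinase gene whose repeat expands in human myotonic dystrophy, and 0.669 kb from BHMG1. A lncRNA, LOC110261013, overlaps its higher-coordinate end. H3K4me3 ran from 1.62 to 6.68 kb, across the higher-coordinate part of SIX5, the gap and the adjoining part of DMPK, with a second region from 7.26 to 8.30 kb inside DMPK. SIX5 had 4.55 and 4.99 kb of H3K4me3 in CBP 60 h, against 5.77 and 5.50 kb in WT 60 h. It had 2.34 and 2.04 kb in CBP 0 h, against 3.06 and 2.48 kb in WT 0 h. The 60 h libraries stood above all 0 h libraries, and CBP libraries below WT libraries at each time. In WT the 60 h level was higher by 0.91 (SE 0.10, adjusted p = 0.000729), at percentile 91.8 of all genes, and this held in every alternative. The CBP changes of −0.28 at 0 h (adjusted p = 0.0641) and −0.22 at 60 h (adjusted p = 0.188) did not pass.

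Much of the SIX5 window is shared with its neighbour. Inside SIX5 itself H3K4me3 covered 2.50 and 2.41 kb in WT 60 h, against 1.68 and 1.68 kb in WT 0 h. In the part of the window that belongs to DMPK it covered 2.47 and 2.30 kb in WT 60 h, against 0.717 and 0.235 kb in WT 0 h. The larger share of the added length was thus on the DMPK side. In DMPK's own window H3K4me3 was higher by 1.32 at 60 h in WT (adjusted p = 0.000192).

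H3K27ac at SIX5 was listed in WT 60 h alone. SIX5 had none in both CBP 60 h libraries, against 2.51 and 2.32 kb in WT 60 h, and none in any library of CBP 0 h or WT 0 h. The peaks ran from 2.05 to 3.75 kb and from 4.24 to 5.08 kb, and 1.678 and 1.496 kb of them lay inside SIX5. The contrasts of 60 h against 0 h in WT (adjusted p = 8.87e-05), of CBP against WT at 60 h (adjusted p = 0.00011) and of their difference with 0 h (adjusted p = 0.000609) passed the test. SIX5 passed the filter through WT 60 h only, so it had to differ, and no fold is given against groups listed at 0. Without either WT 60 h library SIX5 no longer passed the filter. With every H3K27ac list trimmed to the 8969 peaks with the strongest deposited −log10 p, SIX5 was at 0 in WT 60 h too, so its absence in the other groups and the smaller total length of their lists cannot be told apart. DMPK held H3K27ac under CBP, with 3.56 and 2.32 kb in CBP 60 h, against 5.21 and 5.33 kb in WT 60 h (log2 change −0.77, adjusted p = 0.02), and none at 0 h. BHMG1's window holds the first of the SIX5 peaks and the edge of the second, 1.77 and 1.57 kb in WT 60 h and none in the other groups.

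**Figure D2:**
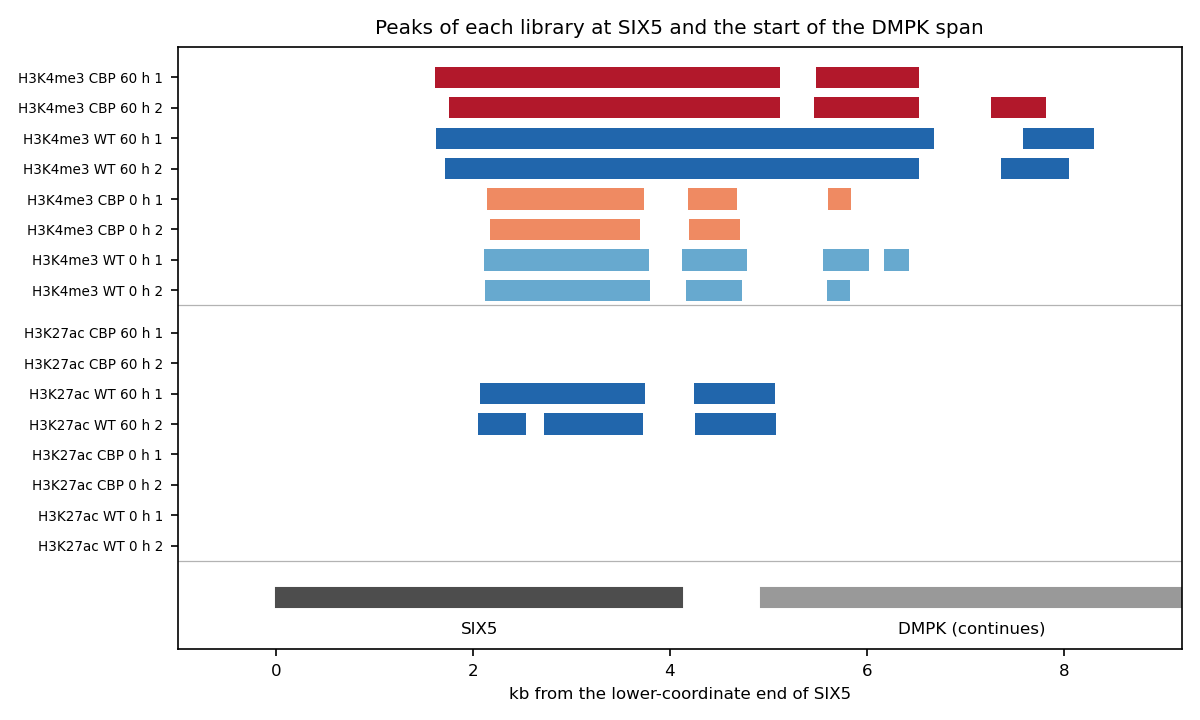
Peaks of each library (rows; H3K4me3 above, H3K27ac below) at SIX5 and the adjoining part of DMPK, in kb from the lower-coordinate end of SIX5; boxes at the bottom are the annotated gene spans. H3K4me3 is present in all 8 libraries and reaches into DMPK, and H3K27ac is present in the 2 WT 60 h libraries.

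EYA1 (chromosome 4, 63970939 to 64328107, 357 kb) is the EYA gene mutated in human branchio-oto-renal syndrome, and in mouse it takes part in satellite cell and fibre type programs. It carried H3K4me3 at its lower-coordinate end, from −0.63 to 0.67 kb, and in 2 wide regions in the middle of the gene, from 183 to 187 kb and from 188 to 191 kb. EYA1 had 6.90 and 6.01 kb of H3K4me3 in CBP 60 h, against 6.76 and 6.42 kb in WT 60 h. It had 3.63 and 3.97 kb in CBP 0 h, against 8.02 and 8.23 kb in WT 0 h. The 60 h groups overlapped, and at 0 h the CBP libraries were far below the WT libraries. At 0 h the change was −1.01 (SE 0.07, adjusted p = 0.000316), at percentile 3.31 of all genes. At 60 h it was −0.03 (adjusted p = 0.829). The difference between the times was 0.98 (SE 0.10, adjusted p = 0.00142), at percentile 93.9, and both this difference and the fall at 0 h held in every alternative.

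All 3 EYA1 regions took part in the loss at 0 h. The end region measured 0.374 ± 0.0064 kb in CBP 0 h and 0.8795 ± 0.0983 kb in WT 0 h, the first middle region 2.05 ± 0.0686 kb in CBP 0 h and 4.12 ± 0.117 kb in WT 0 h, and the second middle region 1.37 ± 0.178 kb in CBP 0 h and 3.12 ± 0.167 kb in WT 0 h (SD, n = 2 each). In WT alone, EYA1 H3K4me3 was lower at 60 h by a log2 change of −0.28 (adjusted p = 0.0197), at percentile 5.36 while the median of all genes was above 0. That call was lost without any one of the 4 WT libraries (adjusted p up to 0.0954) and within 5 kb of the gene ends (adjusted p = 0.122).

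H3K27ac at EYA1 also lay in the middle of the gene. EYA1 had 9.74 and 9.73 kb of H3K27ac in CBP 60 h, against 11.4 and 11.6 kb in WT 60 h. It had 2.93 and 1.496 kb in CBP 0 h, against 5.24 and 5.86 kb in WT 0 h. No 2 groups overlapped. The rise at 60 h in WT was 0.99 (SE 0.25, adjusted p = 0.0223), near the middle of all genes at percentile 63.6, and it was lost without any one WT library (adjusted p up to 0.0965), with quantile scaling (0.39, adjusted p = 0.157) and within 5 kb of the gene ends (0.11, adjusted p = 0.808). The CBP change was −1.21 at 0 h (adjusted p = 0.0186), and it was lost without either WT 0 h library (adjusted p up to 0.0878), with lists trimmed to equal length (−0.77, adjusted p = 0.0658), within 5 kb of the gene ends (−0.32, adjusted p = 0.637) and after quantile scaling (−0.36, adjusted p = 0.231). At 60 h it was −0.23 (adjusted p = 0.498), and with quantile scaling 0.24. The difference of 0.98 between the times did not pass (adjusted p = 0.102), and it passed with −log10 q of at least 5 (1.37, adjusted p = 0.00144).

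Most of this length was one region from 182 to 191 kb, over both middle H3K4me3 regions, and the single H3K27ac region of all 6 genes that was listed in all 8 libraries. It measured 7.94 and 7.56 kb in CBP 60 h, against 8.001 and 8.188 kb in WT 60 h. It measured 1.83 and 0.787 kb in CBP 0 h, against 4.12 and 5.31 kb in WT 0 h. Next to it, sites from 191.8 to 192.5 kb and from 193.0 to 194.6 kb were listed in all 4 libraries of 60 h, CBP and WT, and in none of 0 h. Another pair differed with treatment at 60 h: the site at 226 kb (0.669 kb wide) was listed in neither CBP 60 h library, against both WT 60 h libraries and all 4 libraries of 0 h, and the site from 227 to 228 kb was listed in WT 60 h alone. With lists of equal length neither site of this pair was left in WT 60 h, where their −log10 q was 3.55 to 6.31. The site from 193.0 to 194.6 kb was then left in WT 60 h and not in CBP 60 h.

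**Figure D3:**
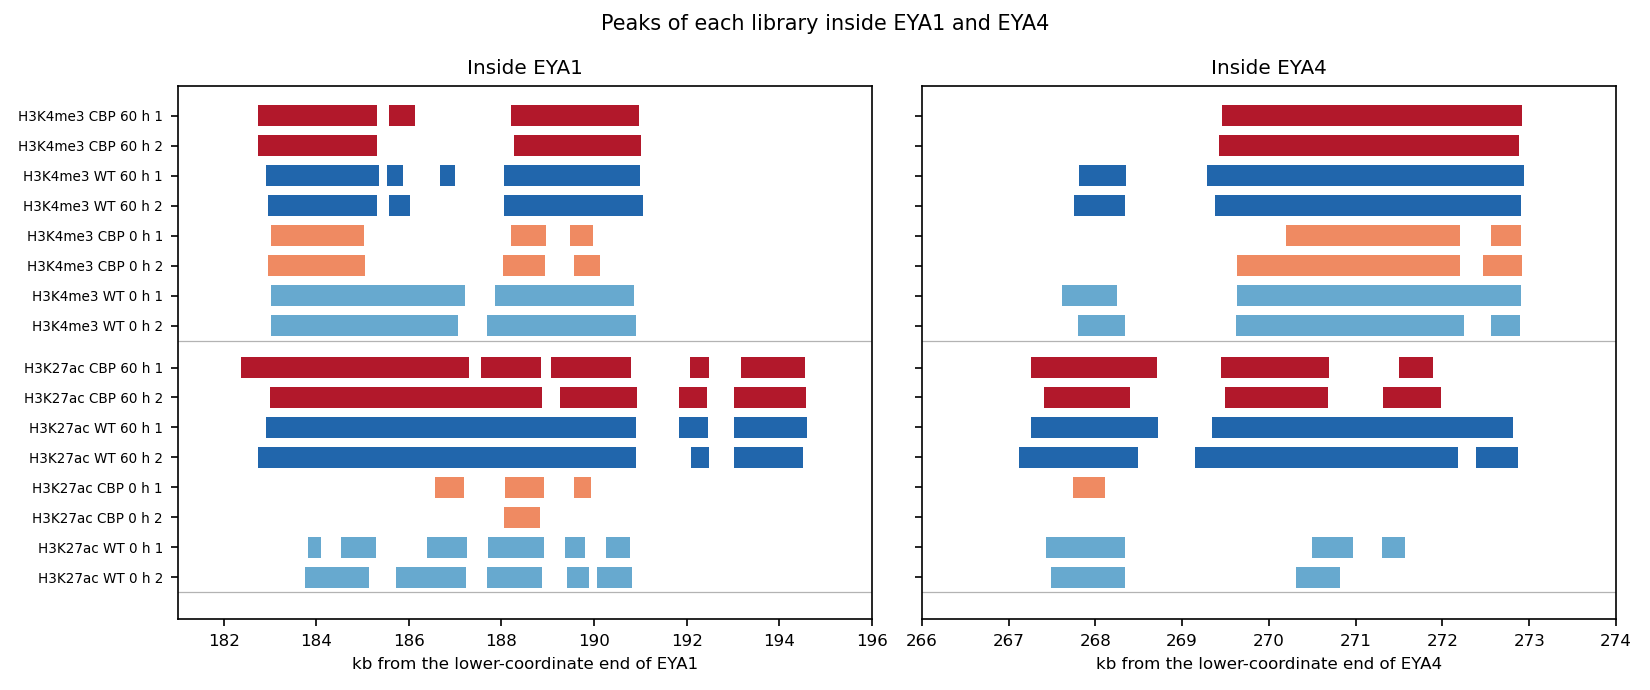
Peaks of each library (rows; H3K4me3 above, H3K27ac below) in the middle of EYA1 (left) and towards the higher-coordinate end of EYA4 (right), in kb from the lower-coordinate end of each gene. In EYA1 the H3K27ac block is 1 peak in each WT 60 h library (8.001 and 8.188 kb) and is short in CBP 0 h (1.83 and 0.787 kb in all). In EYA4 the narrow H3K4me3 peak at 268 kb is seen in the 4 WT libraries. Its −log10 q is below 5 in WT 60 h replicate 1 and WT 0 h replicate 2.

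EYA4 (chromosome 1, 30260784 to 30575593, 315 kb) is known from human hereditary deafness and cardiomyopathy. Its H3K4me3 lay inside the span, in a wide region from 269 to 273 kb and a narrow one from 267.612 to 268.357 kb. EYA4 had 3.46 and 3.47 kb of H3K4me3 in CBP 60 h, against 4.20 and 4.12 kb in WT 60 h. It had 2.35 and 3.02 kb in CBP 0 h, against 3.93 and 3.51 kb in WT 0 h. CBP libraries were below WT libraries at both times. The change at 0 h was −0.41 (SE 0.10, adjusted p = 0.0194), at percentile 22.1, and the change at 60 h was −0.23 (adjusted p = 0.175). The call at 0 h was lost without WT 0 h replicate 1 (adjusted p = 0.0923, and over all alternatives 0.00521 to 0.22). The narrow region was listed in no CBP library, against all 4 WT libraries, with 0.571 ± 0.0368 kb in WT 60 h and 0.596 ± 0.0672 kb in WT 0 h (SD, n = 2 each).

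EYA4 had 3.07 and 2.85 kb of H3K27ac in CBP 60 h, against 5.34 and 5.19 kb in WT 60 h. It had 0.366 kb and none in CBP 0 h, against 1.65 and 1.37 kb in WT 0 h. The 4 groups did not overlap. In WT the 60 h level was higher by 1.52 (SE 0.27, adjusted p = 0.00611), at percentile 84.0, a call lost with a pseudocount of 100 bp (adjusted p = 0.103, and over all alternatives 0.000369 to 0.103). At 0 h CBP changed it by −1.61 (SE 0.27, adjusted p = 0.00868), at percentile 7.22, a call lost without WT 0 h replicate 1 (adjusted p = 0.0597, and over all alternatives 0.00576 to 1). With lists of equal length EYA4 had 0.366 kb and none in CBP 0 h, against none and 0.863 kb in WT 0 h, which overlap. At 60 h the CBP change was −0.74 (adjusted p = 0.0714), at percentile 49.0, and it passed with −log10 q of at least 5 (−1.33, adjusted p = 0.00538), with a pseudocount of 2000 bp (−0.55, adjusted p = 0.00645) and within 5 kb of the gene ends (−0.77, adjusted p = 0.000435). The region from 269 to 273 kb, over the wide H3K4me3 peak, measured 1.74 ± 0.167 kb in CBP 60 h and 3.49 ± 0.029 kb in WT 60 h, and 0.624 ± 0.166 kb in WT 0 h with none in CBP 0 h. A small site beyond the end of the gene, at 319 to 320 kb, was listed in WT 60 h alone.

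EYA2 (chromosome 17, 48930682 to 49243789, 313 kb) encodes a coactivator that, in chick, works with DACH and sine oculis homeobox proteins to induce muscle genes. It held one lasting H3K4me3 region, from 36.3 to 37.5 kb, and none at either end of the annotated span. EYA2 had 0.921 and 1.02 kb of H3K4me3 in CBP 60 h, against 1.05 and 1.20 kb in WT 60 h. It had 0.821 and 0.624 kb in CBP 0 h, against 1.301 and 0.970 kb in WT 0 h. CBP libraries were below WT libraries at both times, by small lengths. The change at 0 h was −0.42 (SE 0.13, adjusted p = 0.0388), at percentile 21.7. That call was lost in 6 of 8 fits without 1 library (all but those without CBP 0 h replicate 1 or WT 0 h replicate 2). It was also lost in 5 of 8 other processings (adjusted p up to 0.542). These were quantile scaling, lists of equal length, −log10 q of at least 5, the span without its flanks and the replicate block (adjusted p = 0.0518). The change at 60 h was −0.14 (adjusted p = 0.514).

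The H3K27ac of EYA2 changed place with time. Both sites of proliferating cells, from 237 to 238 kb (1.28 kb wide) and from 238 to 240 kb (1.14 kb wide), were listed in all 4 libraries of 0 h, CBP and WT, and in none of 60 h. They measured 1.14 ± 0.0297 and 0.935 ± 0.195 kb in CBP 0 h, and 1.24 ± 0.024 and 1.13 ± 0.0064 kb in WT 0 h (SD, n = 2 each). At 60 h the acetylated sites lay instead from 38.7 to 39.3 kb, from 40.8 to 41.1 kb and from 77.1 to 77.6 kb, each in both WT 60 h libraries and in no library of 0 h. Of these, the first was also in 1 CBP 60 h library, and the others were in no CBP library. A further site, from 36.5 to 36.9 kb, was listed in 1 WT 60 h library. Neither of the 0 h sites overlapped H3K4me3 of any library. The site from 38.7 to 39.3 kb met an H3K4me3 peak of 1 WT 0 h library, the site from 36.5 to 36.9 kb lay in the lasting H3K4me3 region, and the sites at 40.8 and 77.1 kb met none.

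Summed over the gene, EYA2 had none and 0.433 kb of H3K27ac in CBP 60 h, against 1.42 and 1.43 kb in WT 60 h. It had 2.23 and 1.91 kb in CBP 0 h, against 2.38 and 2.36 kb in WT 0 h. The 60 h libraries stood below all 0 h libraries, and CBP libraries below WT libraries at each time. EYA2 was the one gene of the 5 with less H3K27ac at 60 h than at 0 h in WT, by a log2 change of −0.58 that did not pass (adjusted p = 0.153, percentile 12.6). It was −1.20 and called with quantile scaling (adjusted p = 0.0154), and its adjusted p ran from 1.93e-05 to 0.494 over all alternatives. The sum hides the exchange of sites, since lengths gained and lost are added together. At 60 h CBP was lower by a log2 change of −1.50 (SE 0.30, adjusted p = 0.011), at percentile 15.0. The call was lost without either WT 60 h library (adjusted p up to 0.0674) and with quantile scaling (−0.60, adjusted p = 0.18), and with lists of equal length EYA2 was at 0 in all 4 libraries of 60 h. At 0 h the change was −0.16 (adjusted p = 0.86), with −log10 q of at least 5 it was −0.81 and called (adjusted p = 0.00109), and with quantile scaling it was 0.74 (adjusted p = 0.117).

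**Figure D4:**
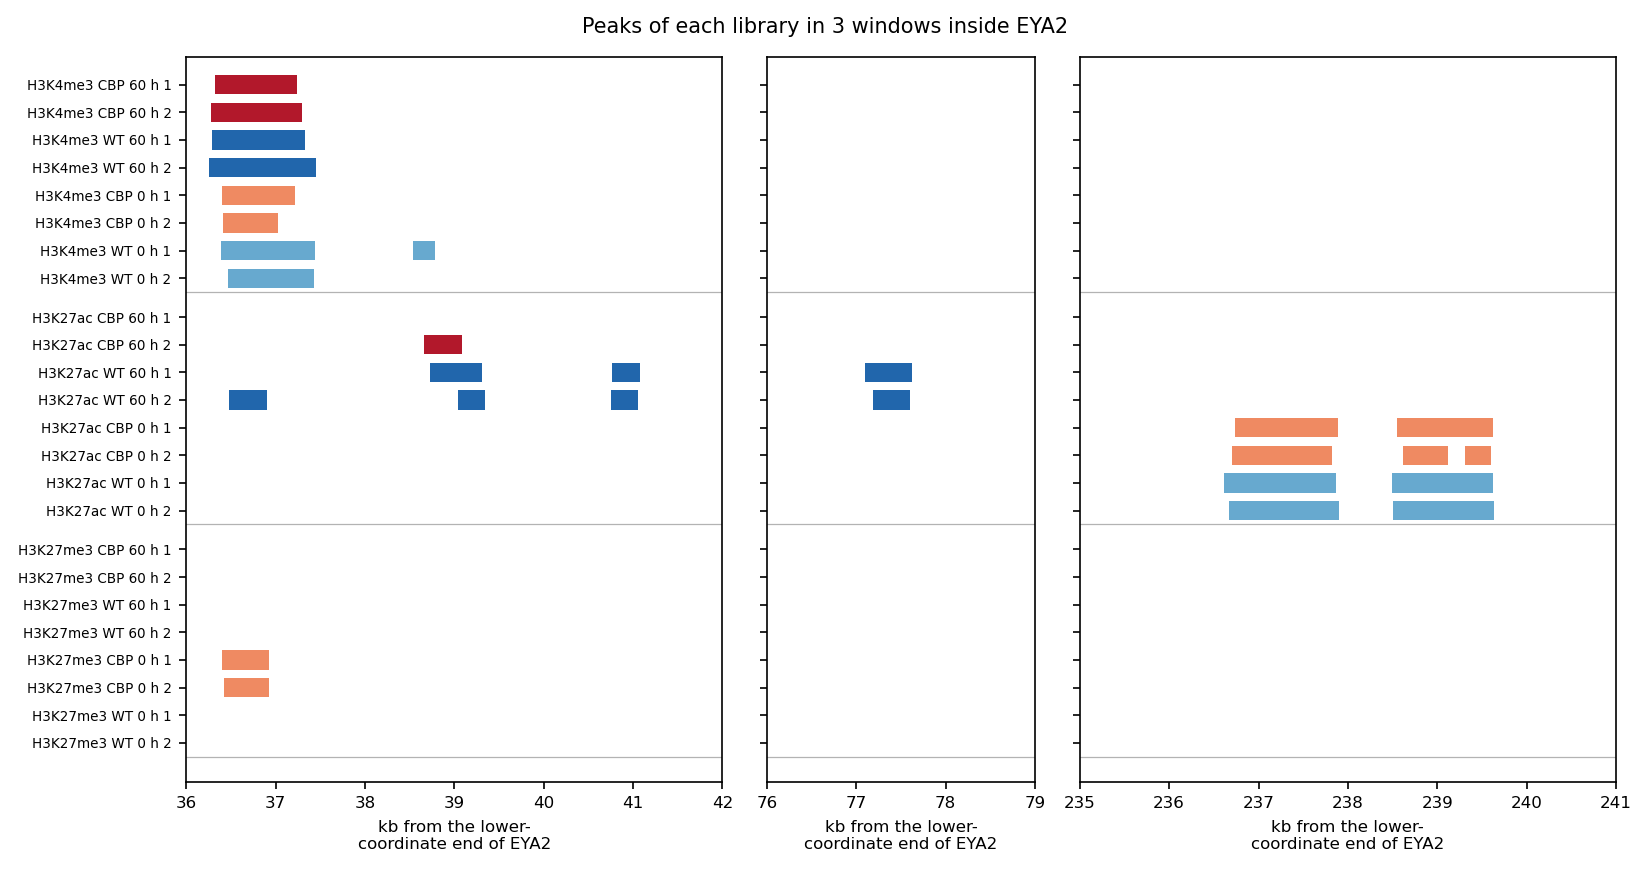
Peaks of each library (rows; H3K4me3, H3K27ac and H3K27me3 from top to bottom) in 3 windows inside EYA2, in kb from its lower-coordinate end. H3K27ac at 237 to 240 kb is seen in the 4 libraries of 0 h, and H3K27ac at 38.7 to 41.1 kb and 77.1 to 77.6 kb in libraries of 60 h; H3K27me3 near 36.4 kb is seen in the 2 CBP 0 h libraries.

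H3K27me3 was listed at EYA2 in both CBP 0 h libraries, 1.17 and 2.11 kb, and in 1 CBP 60 h library, 0.319 kb, against none in any WT library of either time. One region, from 36.4 to 36.9 kb, lay under the H3K4me3 peak of the gene and was listed in both CBP 0 h libraries, 0.521 ± 0.0212 kb. The other ran from 112 to 114 kb. The contrast at 0 h passed the test (adjusted p = 0.00232), as did the difference between the times (adjusted p = 0.0252), which was lost in 6 of 8 fits without 1 library (all but those without CBP 0 h replicate 1 or CBP 60 h replicate 2; adjusted p up to 0.0769). EYA2 passed the filter through CBP libraries only, so it had to differ, and 77.2% of the 4203 genes tested were called higher in CBP 0 h and 53% lower for the difference. The total length under H3K27me3 peaks was 29.9 ± 6.75 Mb in CBP 0 h and 2.11 ± 1.42 Mb in WT 0 h (SD, n = 2 each). With lists of equal length, or with deposited −log10 q of at least 5, no H3K27me3 was left at EYA2. SIX2, SIX4, SIX5, EYA1 and EYA4 had none in any of 8 libraries. Of 6 further genes of the SIX5, EYA2 and DACH families, 4 were measured in this mark. All 4 were called higher in CBP 0 h (adjusted p from 0.00338 to 0.0101), beside 77.2% of all genes tested. SIX3, a factor of eye and forebrain, had 13.0 and 12.8 kb in CBP 0 h, against 0.628 and 2.18 kb in WT 0 h. SIX6, a factor of eye and pituitary, had 9.99 and 9.92 kb in CBP 0 h, against 1.13 and 3.88 kb in WT 0 h. The corepressor genes DACH1 and DACH2 had 1.98 and 1.77 kb and 2.16 and 1.85 kb in CBP 0 h, against none in WT 0 h. DACH1 was listed in WT 60 h replicate 2 (0.91 kb) and in no other WT library. DACH2 was at 0 in every WT library. Both genes passed the filter through CBP libraries only. They thus had to differ, and their calls (limma, adjusted p = 0.00666 for DACH1 and 0.00338 for DACH2) are no support.

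Set against all genes, the counts in H3K4me3 were as follows. In WT at 60 h against 0 h, 1 of 6 genes was higher (SIX5) and 1 lower (EYA1), where 42.2% of 13394 genes tested were called higher and 5.85% lower. For CBP against WT at 0 h, 4 of 6 were lower (SIX2, EYA1, EYA2 and EYA4) and none higher, against 41.7% lower and 1.19% higher of all genes. The 6 genes had a median change of −0.41, and all genes −0.19. For CBP against WT at 60 h none of 6 was called, at a background of 7.36% lower and 10.3% higher, and SIX4 alone had an unadjusted p below 0.05 (0.0344). For the difference between the times 2 of 6 were higher (SIX2 and EYA1), against 37.9% higher and 3.56% lower of all genes.

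In H3K27ac 5 genes were measured. At 60 h against 0 h in WT 4 of 5 were higher (SIX4, SIX5, EYA1 and EYA4), against 46.8% higher and 10.6% lower of 10294 genes tested. With CBP at 0 h 2 of 5 were lower (EYA1 and EYA4), against 32.6% lower and 1.4% higher. With CBP at 60 h 3 of 5 were lower (SIX4, SIX5 and EYA2), against 45.8% lower and 3.03% higher. For the difference between the times 1 of 5 was lower (SIX5), against 18.9% lower and 11.5% higher. SIX5 is counted for 60 h in WT, for CBP at 60 h and for the difference. It passed the filter through WT 60 h only, so it had to differ there and its calls are no support. Since 1 gene is 20% of 5 and no test was made of the group, these shares are given as a description.

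**Figure D5:**
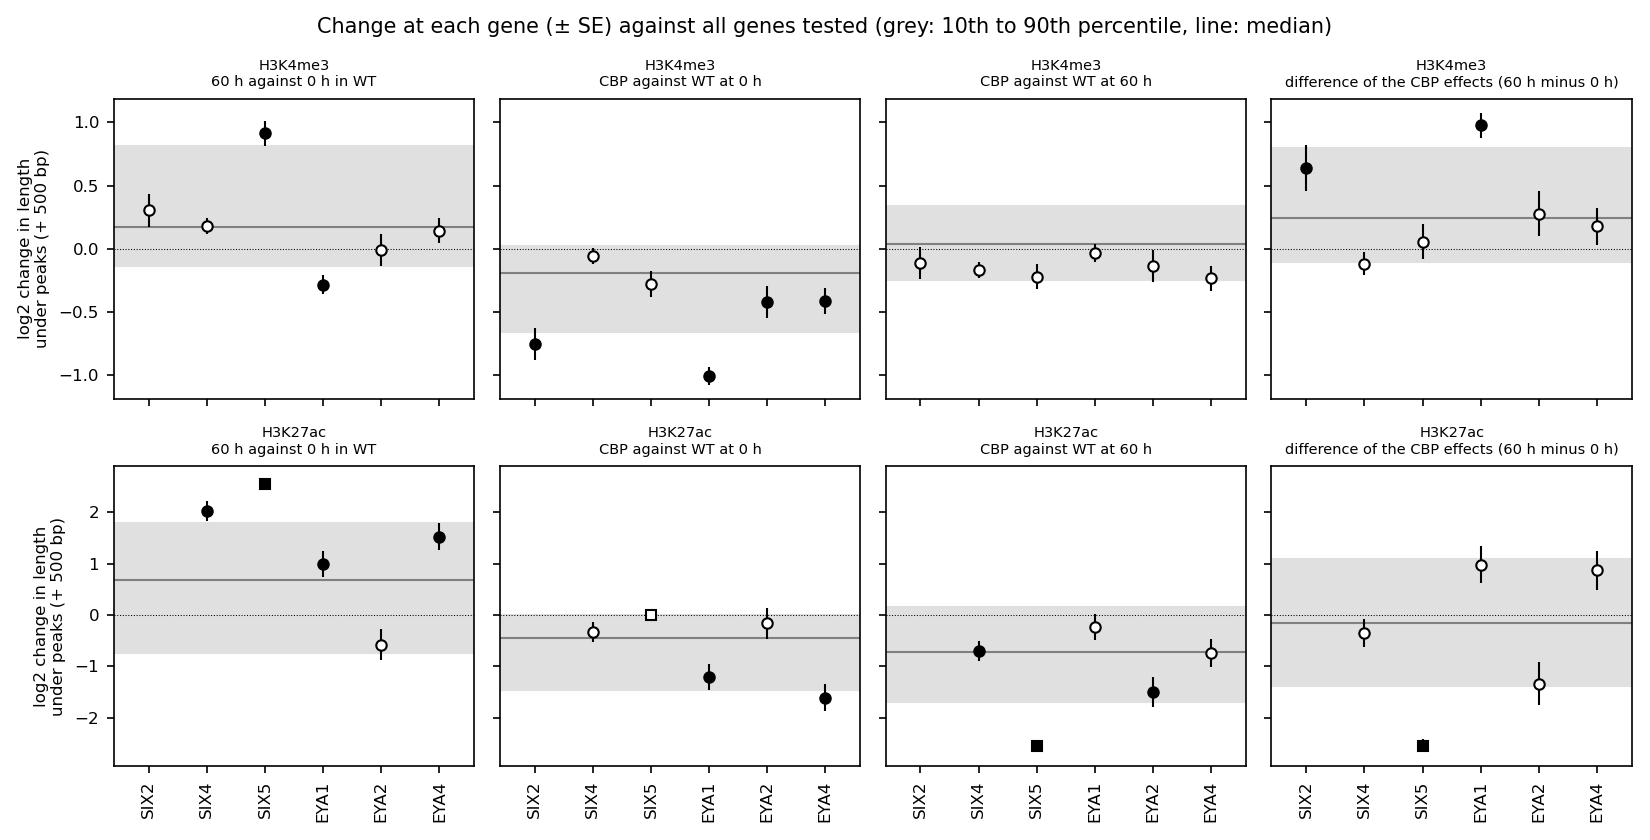
Log2 change of each gene in each comparison (columns) for H3K4me3 (upper row) and H3K27ac (lower row), with SE bars; filled symbols passed the test, squares have a group listed at 0, and the grey band holds the 10th to 90th percentile of all genes tested around their median (line). EYA1 H3K4me3 lies below the band for CBP against WT at 0 h (−1.01) and above it for the difference between the times (0.98).

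Counted as regions, the 6 genes held 12 of H3K4me3, 9 of them in all 8 libraries, and 22 of H3K27ac, 1 of them in all 8 libraries and 10 of them overlapping H3K4me3. A region was called gained or lost when it was listed in both libraries of one group and in neither of the other. At 60 h against 0 h in WT, 10 of 22 H3K27ac regions were gained and 2 lost (both of EYA2), against 25.4% gained and 16.1% lost of 33723 regions of the genome. For CBP against WT at 0 h, none of 10 was gained and 2 were lost (1 of SIX4, 1 of EYA4), against 3.64% gained and 29.7% lost of 21629. For CBP against WT at 60 h, none of 18 was gained and 8 were lost, against 4.6% gained and 22.7% lost of 30229. Those 8 belonged to SIX4 (1), SIX5 (2), EYA1 (2), EYA2 (2) and EYA4 (1). With lists of equal length the 8 lost regions became 1, and with −log10 q of at least 5 they became 3.

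The genes whose lengths varied most like each member over the same libraries are given by Pearson's r, as a description. Each mark was centred on its own mean, and all points share the length of their lists. For SIX2, over 8 H3K4me3 libraries, they were PA2G4 (r = 0.996), ZNF432 (r = 0.995) and GLRX5 (r = 0.994). Over 16 libraries of H3K4me3 and H3K27ac, NAA35 and SCYL2 (r = 0.993 each) were closest to SIX4, LRIF1 (r = 0.999) to SIX5, and NECTIN3 (r = 0.989) and LRP6 (r = 0.985) to EYA4. Among the genes most like EYA1 were SPRY1 (r = 0.959) and SMAD7 (r = 0.958). For EYA2, over 24 libraries, KCTD1 had r = 0.911, and GMPPA and CACNB2 had r = 0.841 each.

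The counts over other genes of the network are given beside the shares of all genes called. Among 8 muscle genes on which sine oculis homeobox proteins act in mouse, 6 were higher and 1 lower in H3K4me3 at 60 h in WT (all genes 42.2% higher and 5.85% lower), with MYOG, the myogenin gene, at 4.03 and 3.93 kb in WT 60 h against none in WT 0 h. MYOG and CKM had no H3K4me3 in any 0 h library and entered the test through 60 h libraries only. They thus had to differ with time, and their calls as higher are no support. With CBP 5 of 8 were lower at 0 h (all genes 41.7%) and 5 of 8 at 60 h (all genes 7.36%). MYF6 is in both counts and held H3K4me3 in WT libraries alone, so it had to differ and its calls are no support. MYOG had 2.62 and 2.73 kb in CBP 60 h, against 4.03 and 3.93 kb in WT 60 h (adjusted p = 0.00272). In H3K27ac 5 of 8 were higher at 60 h in WT (all genes 46.8%), 3 were lower with CBP at 0 h (all genes 32.6%) and 5 at 60 h (all genes 45.8%). MYOD1 held H3K27ac in WT 60 h alone (0.886 and 1.045 kb), so it had to differ in both 60 h counts and its calls are no support. MYOG held H3K27ac at 60 h alone, so it had to differ with time and its call as higher is no support. ENO3, the muscle enolase gene, had none and 0.276 kb of H3K27ac in CBP 60 h, against 5.40 and 5.54 kb in WT 60 h (adjusted p = 0.000652). In H3K27me3 1 of the 8 was measured, ALDOA, and it was higher in CBP 0 h (all genes 77.2%). ALDOA was at 0 in every WT library of this mark, so it had to differ and its call is no support.

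Of 6 upstream and partner factors 5 were measured in H3K4me3, where 1 was higher and 2 lower at 60 h in WT (all genes 42.2% and 5.85%), 4 were lower with CBP at 0 h (all genes 41.7%) and 2 at 60 h (all genes 7.36%). PAX7, the satellite cell factor, had 5.46 and 5.54 kb of H3K4me3 in CBP 60 h, against 10.8 and 9.53 kb in WT 60 h (adjusted p = 0.00181). Of those factors 4 were measured in H3K27ac, where 4 were higher at 60 h in WT (all genes 46.8%), 1 was lower with CBP at 0 h (all genes 32.6%) and 2 at 60 h (all genes 45.8%). MEOX2 had no H3K27ac in any 0 h library and entered the test through 60 h libraries only. It thus had to differ with time, and its call as higher is no support. In H3K27me3 5 were measured, with 2 higher under CBP at 0 h (all genes 77.2%). Of these 2, MEOX2 was listed in CBP 0 h alone. PAX3 was listed in WT 60 h replicate 1 (0.7 kb) and in no other WT library. Both passed the filter through CBP libraries only, so they had to differ and their calls are no support. Of the 6 further family genes 5 were measured in H3K4me3, with 1 higher and 2 lower at 60 h in WT, 2 lower with CBP at 0 h and none at 60 h, beside the same shares of all genes. SIX3, among the 2 lower at 60 h, passed the filter through 0 h libraries only, so it had to differ and that call is no support. In H3K27ac 2 were measured, with 1 lower with CBP at each time (all genes 32.6% at 0 h and 45.8% at 60 h).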

How the data were processed

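CUT&Tag peak lists of 24 libraries (3 marks, 4 groups, 2 replicates) were analysed; 8 IgG samples were not analysed here. Per the submitters' processing notes, Trimmomatic (no version given), MACS2 2.1.0 and the build Sscrofa11.1 were used; the aligner, peak options, control library and number of reads were not given in the sources used here. Precision from depth is thus unknown. The authors deposited 1 narrow (H3K4me3, H3K27ac) or broad (H3K27me3) list per library. The deposited score is the display score of MACS2, and the deposited ratio is the fold over the local background in that library. The deposited −log10 p and −log10 q values give a peak's significance, and another deposited column of narrow lists holds the summit offset. These values are relative to their own library, so only positions were compared between libraries.

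Peaks of a list were merged and their length summed in each gene span ± 5 kb (Python 3.11.15, numpy 2.4.6, pandas 2.3.3). Gene spans came from the RefSeq annotation of Sscrofa11.1, which gives no strand here; 68.2 to 74.1% of H3K4me3 peaks lay within 1 kb of a gene end, against 9.03 to 11.1% after a shift of 200 kb. limma 3.58.1 in R 4.3.3 (lmFit, contrasts, eBayes with trend and robust) was fitted per mark to log2(bp + 500), keeping genes that reached 200 bp in 2 or more of 8 libraries, with 4 residual degrees of freedom. Exact permutation of 2 against 2 libraries cannot go below p = 0.333. A group listed at 0 in both libraries adds no spread; this was so for at least 1 group in 1406 of 13394 genes for H3K4me3, 6942 of 10294 for H3K27ac and 3090 of 4203 for H3K27me3. The fit and the length sums were tested on simulated data.

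The members and gene lists were chosen with earlier results of these data known. Named genes were the 6 members, their neighbours, the 3 fixed lists and, per member, the 3 genes with the highest r more than 5 kb outside its window. Some genes that these rules name are not reported here. Same-numbered replicates did not deviate together (correlations of −0.044 to 0.038 for H3K4me3 and 0.005 to 0.038 for H3K27ac, and −0.089 to 0.183 for H3K27me3), so the fit has no replicate block. The alternatives were other pseudocounts, filters, scalings, windows, list lengths and peak thresholds, the block, and each library left out. Counts of regions under other lists were added after seeing the data. Figures used matplotlib 3.10.9.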

Additional observations from a re-analysis of the deposited data

Results flagged for a closer look

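The CBP effect at 60 h differed from that at 0 h for 2 genes in H3K4me3, by a test of the difference itself (limma, adjusted over all genes). For EYA1 the log2 difference was 0.98 (adjusted p = 0.00142): all 3 regions were shorter in both CBP 0 h libraries than in both WT 0 h libraries, and at 60 h the lengths summed over the gene overlapped. By region, CBP 60 h was longer than WT 60 h at the gene end (1.002 and 0.696 kb, against 0.692 and 0.602 kb). In the second middle region it was shorter (2.763 and 2.743 kb, against 2.955 and 3.009 kb), and in the first middle region the libraries overlapped. For SIX2 it was 0.64 (adjusted p = 0.0338), a call lost in 6 of 8 fits without 1 library and in 4 of 9 other processings, with values from 0.38 to 1.60 and adjusted p up to 0.167. The same contrast also passed for a pair of genes that entered the test only through the group where they are high, so that they had to differ and the p is no support. These were SIX5 H3K27ac, listed in both WT 60 h libraries and in no other (adjusted p = 0.000609), and EYA2 H3K27me3, listed in both CBP 0 h libraries and in 1 CBP 60 h library (adjusted p = 0.0252), where 53% of all genes tested in that mark were called lower for the difference. The total length under peaks moved with these results: it was smallest in CBP 0 h for H3K4me3 (17.3 Mb in CBP 0 h, against 21.9 Mb in WT 0 h) and largest there for H3K27me3 (29.9 Mb in CBP 0 h, against 2.11 Mb in WT 0 h). With lists of equal length the difference was 0.99 for EYA1 (adjusted p = 0.00114) and 1.19 for SIX2 (adjusted p = 0.0583), and SIX5 H3K27ac and EYA2 H3K27me3 were at 0 in all libraries. With quantile scaling it was 0.66 for EYA1 (adjusted p = 0.00656), 0.38 for SIX2 (adjusted p = 0.167) and 0.13 for EYA2 H3K27me3 (adjusted p = 0.843), and SIX5 H3K27ac kept an adjusted p of 0.00411.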

How the results depend on the processing

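The counts of called genes below are of 6 for H3K4me3, 5 for H3K27ac and 1 for H3K27me3, and where one changed, the cause was not tested. With quantile scaling 1 gene was called in H3K4me3 for CBP against WT at 60 h, 1 and 1 in H3K27ac for CBP at 0 h and at 60 h, and 0 in H3K27me3 for CBP at 0 h and for the difference between the times. With lists of equal length the counts were 2 in H3K4me3 for CBP at 0 h, 1 for the difference, 1 and 1 in H3K27ac for CBP at 0 h and 60 h, and 0 and 0 in H3K27me3. With −log10 q of at least 5 they were 2 for CBP at 0 h and 1 for the difference in H3K4me3, 3 for the difference in H3K27ac, and 0 and 0 in H3K27me3. Within 5 kb of either gene end they were 1 in H3K4me3 for 60 h against 0 h in WT, 2 for CBP at 0 h, 0 and 2 in H3K27ac for CBP at 0 h and the difference, and 0 and 0 in H3K27me3; this window holds none of the H3K4me3 of EYA2 and EYA4. The span alone gave 1 for the H3K4me3 difference, a pseudocount of 2000 bp gave 2 for the H3K27ac difference, and one of 100 bp gave 0 for the H3K27me3 difference. H3K27me3 without a filter could not be fitted.

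H3K27ac regions with lists of equal length were 5 gained at 60 h in WT, 2 gained and 0 lost with CBP at 0 h, and 1 lost with CBP at 60 h; with −log10 q of at least 5, 3 were lost with CBP at 60 h. Without 1 library, the counts ran from 1 to 3 (60 h in WT), 2 to 5 (CBP at 0 h), 0 to 1 (CBP at 60 h) and 1 to 3 (difference) in H3K4me3. In H3K27ac they ran from 2 to 5, 0 to 2, 0 to 3 and 0 to 3, and the H3K27me3 difference from 0 to 1.

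Log2 changes that turned sign with quantile scaling were SIX4 −0.054 and EYA4 −0.092 (H3K4me3, 60 h in WT), SIX4 0.21 (H3K4me3, CBP at 0 h), SIX5 −0.19, EYA2 −0.10 and EYA4 −0.076 (H3K4me3, difference), SIX4 0.46 and EYA2 0.74 (H3K27ac, CBP at 0 h), SIX4 0.040 and EYA1 0.24 (H3K27ac, CBP at 60 h), and EYA2 −0.0025 and 0.13 (H3K27me3, CBP at 0 h and difference). With equal lists they were EYA2 0.10 (H3K4me3, 60 h in WT), SIX4 0.63 (H3K27ac, CBP at 0 h), and EYA2 0.16 and EYA4 −0.93 (H3K27ac, difference). With −log10 q of at least 5 they were EYA2 0.10 (H3K4me3, 60 h in WT), EYA1 0.032 (H3K4me3, CBP at 60 h) and EYA2 0.11 (H3K27ac, difference). Near gene ends they were EYA1 0.23 (H3K4me3, CBP at 60 h), and EYA1 −0.11 and EYA4 −0.77 (H3K27ac, difference). Without 1 library, values that did not pass the test crossed 0 for EYA2 (H3K4me3, 60 h in WT, −0.15 to 0.14), SIX5 (H3K4me3, difference, −0.070 to 0.18) and EYA1 (H3K4me3, CBP at 60 h, −0.12 to 0.062).

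With a replicate block the counts were 2, 3, 0 and 2 in H3K4me3, 4, 2, 3 and 1 in H3K27ac, and 0, 1, 0 and 1 in H3K27me3, for the WT time course, CBP at 0 h, CBP at 60 h and their difference; EYA2 H3K4me3 for CBP at 0 h lost its call (adjusted p = 0.0518). The same-numbered libraries share only a number.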
